A study of Mus musculus with 8 samples.

Results

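Sox4+Cd24a+ Cd8 T cells are Cd8 T cells of the mouse bone marrow in which at least 1 UMI (unique molecular identifier, 1 captured transcript) of each of Sox4 and Cd24a was counted. They were chosen by their measured UMIs of the genes named here, in 4 single-cell gene expression matrices. A barcode was a Cd8 T cell if it had 200 or more genes, at most 15% mitochondrial UMIs, at least 1 UMI over Cd3d, Cd3e and Cd3g, at least 1 over Cd8a and Cd8b1, and no UMI of Cd4, Mki67 or Kit. Of 56649 barcodes, 55850 passed the 2 quality limits, 26903 were Cd8 T cells and 92 were Sox4+Cd24a+. The other 26811 are called other Cd8 T cells.

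The Runx1::Runx1t1 group came from C57BL/6 mice with the genotype Runx1Runx1t1/+; Mx1-Cre, in which Cre under the interferon-inducible Mx1 promoter turns on a heterozygous knock-in of the leukemia fusion gene together with mCherry in blood-forming cells. The Control group carried the same knock-in without Mx1-Cre per the study's methods, while its labels read wild type. All mice, sex-matched littermates whose age is not given in the sources used here, received 4 doses of 5 mg/kg Poly(I:C), an interferon inducer, and were analysed 4 weeks later. Each group had 2 pools of 2 mice, and T cells enriched by negative selection were sorted as DAPI- mCherry- CD3+, so the profiled cells do not show the fusion reporter. The mice of a pool cannot be separated. Between the groups p-values measure the spread between pools. Between Sox4+Cd24a+ and other Cd8 T cells they measure the spread of the within-pool difference over pools. Library depth was 102883449 and 100115383 UMIs in Runx1::Runx1t1 replicates 1 and 2, and 90958101 and 99869646 UMIs in Control replicates 1 and 2.

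As background, CD8 T cells mature in the thymus through stages in which the antigen receptor chains are rearranged by Rag1 and Rag2, and leave it as naive cells. Sox4 is a high-mobility-group transcription factor of early lymphocytes, Cd24a encodes the heat-stable antigen that immature thymocytes and recent thymic emigrants carry and that mature T cells lose, Myb is a transcription factor of progenitors and thymocytes, and St8sia6 is a sialyltransferase. Progenitors, B cells and monocytes of the marrow also express Cd24a or Sox4. Mature naive CD8 T cells depend on the interleukin 7 receptor and Bcl2 for survival and on Klf2 for leaving tissues.

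The rule did not use the antigen receptor, which was sequenced from the same cells. A TRB chain was found in 69 of the 92 members by barcode, both a TRA and a TRB chain in 59, and no chain in 22. The chains of 1 paired member of each pool are printed to show rearranged receptors that differed from cell to cell. The sequences are CDR3 coding sequences, read 5′ to 3′, and capitals mark bases that match neither the V nor the J germline segment of the GENCODE M21 annotation, which for TRB includes bases of the D segment.
Runx1::Runx1t1 replicate 1, TRAV4-4-DV10 with TRAJ37: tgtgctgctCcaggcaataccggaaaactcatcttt
Runx1::Runx1t1 replicate 1, TRBV14 with TRBJ1-3: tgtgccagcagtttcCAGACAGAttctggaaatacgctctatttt
Runx1::Runx1t1 replicate 2, TRAV9D-3 with TRAJ7: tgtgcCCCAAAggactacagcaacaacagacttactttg
Runx1::Runx1t1 replicate 2, TRBV14 with TRBJ1-1: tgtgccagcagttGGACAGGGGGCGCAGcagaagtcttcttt
Control replicate 1, TRAV6N-6 with TRAJ23: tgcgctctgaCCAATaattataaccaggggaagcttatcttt
Control replicate 1, TRBV26 with TRBJ2-5: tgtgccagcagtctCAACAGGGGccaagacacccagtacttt
Control replicate 2, TRAV10 with TRAJ27: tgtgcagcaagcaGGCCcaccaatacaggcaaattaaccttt
Control replicate 2, TRBV12-1 with TRBJ2-5: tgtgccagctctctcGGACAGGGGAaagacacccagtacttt
These 4 members used different TRA V segments, and each TRB chain carried bases outside its V and J segments.

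The rule of at least 1 UMI keeps cells close to the limit. Of the 92 members, 26 had exactly 1 Sox4 and 1 Cd24a UMI, 41 had 1 Sox4 UMI and 48 had 1 Cd24a UMI, with maxima of 10 and 12. Just outside the rule lay 743 Cd8 T cells with Sox4 but no Cd24a UMI and 352 with Cd24a but no Sox4 UMI, and 25716 had neither. Over all pools the members were somewhat deeper than the rest, with a median of 8596 UMIs against 7112. In Runx1::Runx1t1 replicate 2 they were shallower, at 6364 against 7087.

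Free transcripts can give a UMI in a cell that does not express a gene, so cells taken to lack both genes were set beside the rest. Cd8 T cells with a Klrg1 UMI, terminal effector cells taken to lack both genes, had a Sox4 UMI in 26 of 1078 cells (2.41%), against 3.10% of all Cd8 T cells. A Cd24a UMI was counted in 1.48% of the Klrg1+ cells against 1.65%, and both in 4 of 1078 (0.371%) against 0.342%. The median depth of the Klrg1+ cells was 5776, 7562, 6009.5 and 4686.5 UMIs in the 4 pools (Runx1::Runx1t1 replicates 1 and 2, then Control replicates 1 and 2, the order used throughout). By pool both were counted in 0.204, 0.433, 0.667 and 0.485% of Klrg1+ cells and in 0.206, 0.160, 0.768 and 0.271% of all Cd8 T cells. All Cd8 T cells were thus higher in replicate 1 of each group and lower in replicate 2. Over all pools the share of Sox4+Cd24a+ cells was not above that in Klrg1+ cells, a reference of 4 such cells. It is not read as a level above background. The part of free transcripts in it was not tested. With at least 2 UMIs of both genes the share was 0.108% of Cd8 T cells and 1 of 1078 Klrg1+ cells. By pool that was 0.0295, 0.0438, 0.272 and 0.0998% of Cd8 T cells, and the Klrg1+ cell was from Control replicate 1. At 2000 UMIs per cell the Sox4 share was 1.16% of Cd8 T cells and 0.783% of Klrg1+ cells, and the Cd24a share 0.572% and 0.516%.

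Cd24a was counted more often in cells with Sox4 than in cells without it. A Cd24a UMI was found in 92 of 835 Cd8 T cells with Sox4 and in 1.35% of those without. By pool the pairs were 7.95% and 1.29%, 7.59% and 1.18%, 17.8% and 1.54%, and 7.79% and 1.42%. The share with Sox4 was the higher of the pair in each of the 4 pools. With under 5 UMIs of other lineages the shares were 9.33% and 1.27%. Median depth was close in both kinds of cell, at 7491.5, 7213, 6612.5 and 7025 UMIs with Sox4 and 7659, 7081, 6885 and 6987 without.

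Myb and St8sia6 were named with the rule as markers of these cells and are described without a test. A Myb UMI was counted in 47 of 92 members (51.1%) and in 11.5% of other Cd8 T cells. Myb stood at 92.3, 274, 196 and 155 CPM (counts scaled to a fixed total, from the summed UMIs of a class in a pool) in the members, against 25.7, 25.4, 32.6 and 17.6 CPM in other Cd8 T cells. Every pool was higher in the members. St8sia6 was counted in 16 members (17.4%) and in 2.90% of the others, at 30.8, 31.6, 39.2 and 4.19 CPM against 0.801, 2.80, 16.9 and 0.578 CPM. Its level in the other cells of Control replicate 1 was above the member level of Control replicate 2. Cells with Sox4 but no Cd24a lay between, with Myb at 66.3, 82.7, 83.0 and 38.3 CPM.

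Rag1, Rag2 and Ptcra, defining transcripts of early thymocytes, were at or near 0, so the data do not bear out a name as immature thymocytes. Rag1 and Rag2 together gave 2 UMIs in the 92 members, and Ptcra, the pre-T cell receptor alpha chain, gave 0. Both Rag UMIs lay in Control replicate 1 members that also held 36 and 78 UMIs of B cell genes. The 26811 other Cd8 T cells gave 3 Rag1, 0 Rag2 and 9 Ptcra UMIs. Dntt, the terminal transferase, gave 70 UMIs in 7 members, of which 1 Control replicate 2 member held 37, and 68 lay in 6 barcodes that also held transcripts of other lineages. Themis, a signalling protein of thymocytes and T cells, supplied most of the immature thymocyte list in Runx1::Runx1t1 replicates 1 and 2 and Control replicate 1, at 84.6, 126 and 87.2 CPM against 69.9, 90.8 and 66.8 CPM in other Cd8 T cells, while Dntt led in Control replicate 2 at 243 CPM. Of the 4 immature thymocyte genes that could be tested only Dntt rose over all members, and none was called among the 75 members with few transcripts of other lineages described next. The cells are therefore called by their 2 defining genes.

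The members were a mixture. Markers of 6 other lineages (39 genes of B cells, neutrophils, monocytes, erythroid cells, progenitors and plasmacytoid dendritic cells, with genes such as Ighm and Bst2 that T cells also express left out of the count) reached 5 or more UMIs in 17 members (2, 1, 7 and 7 by pool, 18.5%). Among other Cd8 T cells they did so in 356, or 1.33%. Over the full lists, with the left-out genes included, progenitor genes led in 7 of the 17 and B cell genes in 4. Monocyte and plasmacytoid dendritic cell genes led in 3 each. A Control replicate 2 member led by plasmacytoid dendritic genes had 12 UMIs of that list but 9 counted UMIs. The 17 had a median of 18103 UMIs (6088 to 29674) against 7540 (2706 to 22832) in the remaining 75. Scrublet, which scores likely doublets, marked 14.3, 18.2, 12.5 and 47.4% of the members by pool against 5.70, 4.65, 6.34 and 7.88% of other Cd8 T cells. The plot of other-lineage UMIs against depth shows these 17 barcodes to the right of the limit. The main results are therefore given with all 92 members and with the 75 barcodes under 5 other-lineage UMIs, a limit chosen after the data were seen.

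**Figure D1:**
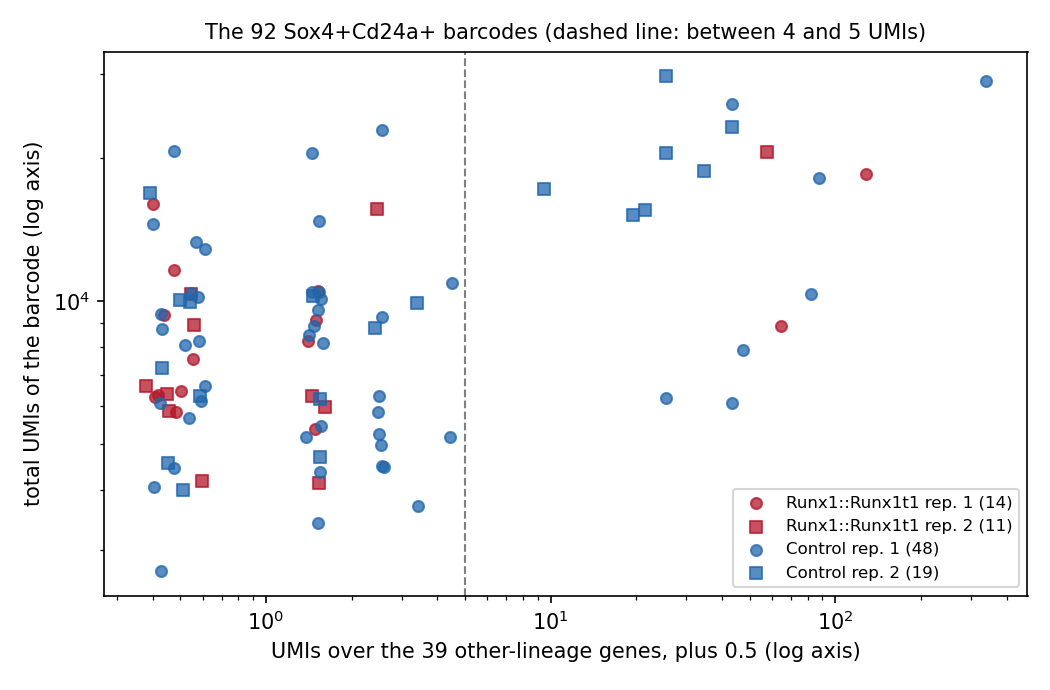
Total UMIs of each of the 92 Sox4+Cd24a+ barcodes (log axis) against its UMIs over 39 genes of other blood lineages plus 0.5 (log axis, points spread slightly sideways), coloured by group and shaped by pool. The 17 barcodes right of the dashed line have 5 or more such UMIs, 3 of them from the Runx1::Runx1t1 pools and 7 from each Control pool.

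The first question was whether Sox4+Cd24a+ cells are as frequent in Runx1::Runx1t1 as in Control marrow. They were 14 of 6788 Cd8 T cells in Runx1::Runx1t1 replicate 1 (0.206%, 95% Wilson interval 0.123 to 0.346%) and 11 of 6857 in replicate 2 (0.160%, 0.0896 to 0.287%). They were 48 of 6247 in Control replicate 1 (0.768%, 0.580 to 1.02%) and 19 of 7011 in Control replicate 2 (0.271%, 0.174 to 0.423%). Both Runx1::Runx1t1 pools were below both Control pools, and Control replicate 1 stood well above the other 3. The means were 0.183 ± 0.0324% and 0.520 ± 0.352% (SD, n = 2 pools), a difference of -0.336 percentage points. A two-sided exact permutation test gave p = 0.33, the smallest this design allows, and without Control replicate 1 the difference shrank to -0.0877. The intervals cover counting error only.

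With the barcodes under 5 other-lineage UMIs the shares were 0.178, 0.149, 0.670 and 0.172%, and the groups overlapped. The difference was then -0.258 percentage points. When each receptor clonotype was counted once per pool the shares were 0.276, 0.192, 0.653 and 0.177%, again with overlapping groups. At 2000 UMIs per cell, which leaves out 507 shallower Cd8 T cells (2.27% and 1.51% of a pool on average in Runx1::Runx1t1 and Control), they were 0.0222, 0.0451, 0.176 and 0.0458%. The plot of shares by pool shows Control replicate 1 alone well above the other 3 pools.

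**Figure D2:**
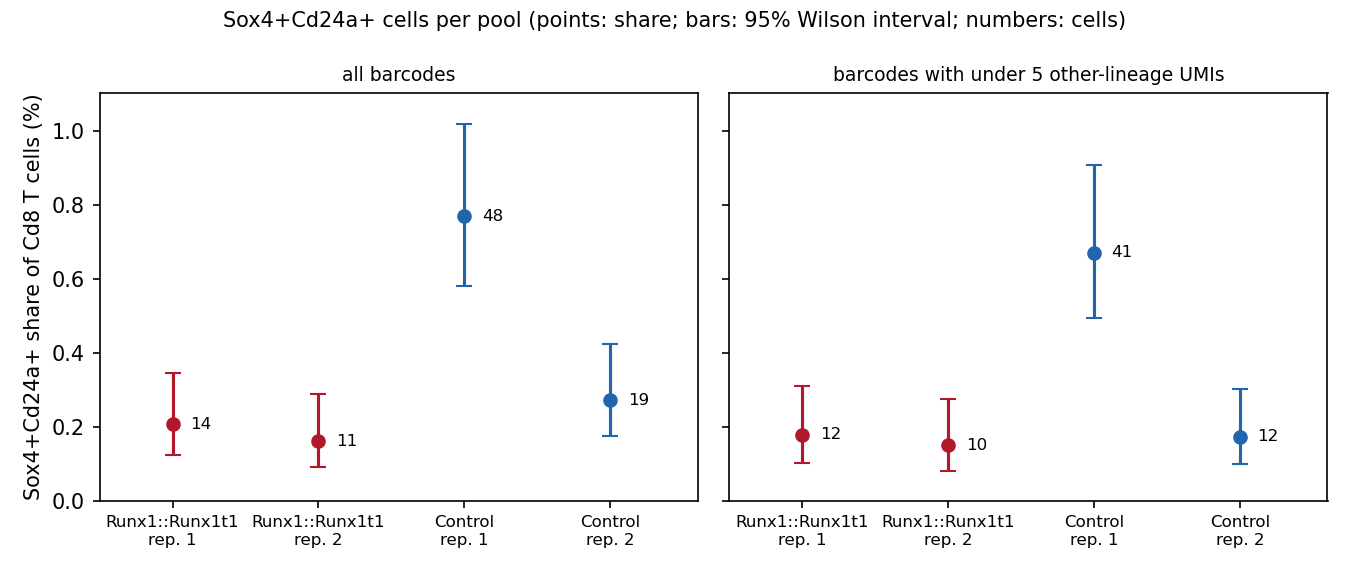
Share of Cd8 T cells that were Sox4+Cd24a+ in each pool (percent, points) with 95% Wilson intervals (bars) and the number of cells, for all barcodes on the left and those with under 5 other-lineage UMIs on the right. Control replicate 1 (0.768% and 0.670%) stands above the other pools in both panels.

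Ccl5, a chemokine of antigen-experienced CD8 T cells, divided the members in a similar proportion in each group. At most 5 Ccl5 UMIs were counted in 50 members and over 5 in 42. The 50 made up 52.3 ± 3.21% of the members of a Runx1::Runx1t1 pool and 52.9 ± 7.75% of a Control pool (SD, n = 2 pools). Among all Cd8 T cells the same share was 33.9 ± 5.92% and 46.8 ± 6.35%, and those groups did not overlap. The Sox4+Cd24a+ cells thus lay among both low and high Ccl5 cells.

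The second question was how the members differ from other Cd8 T cells of the same pool. UMIs were summed per class and pool, and edgeR's quasi-likelihood test was applied to the sums in a model that kept both sums of a pool together, with Benjamini-Hochberg adjustment. Of 11570 genes tested, 552 (4.77%) were called at adjusted p under 0.05, 277 (2.39%) higher and 275 (2.38%) lower in the members. DESeq2 called 248, split 175 higher and 73 lower. Of all genes tested, 9.99% were higher and 9.83% lower in the members of each of the 4 pools. Among barcodes under 5 other-lineage UMIs, 273 of 11380 genes (2.40%) were called, of which 64 (0.562%) were higher and 209 (1.84%) lower, and 215 of the 552 were called again. The genes of the rule, Myb and St8sia6 were left out of the test.

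Genes of other lineages rose over all 92 members. The 75 were selected for few UMIs of the same genes, so their low levels there follow from the choice and are given as a description. Summed progenitor genes stood at 1100, 411, 2.18 and 306 CPM in the 92 members, led by Cpa3 or Cd34, against 22.3, 25.7, 1.54 and 4.18 CPM in other Cd8 T cells. In the 75 they stood at 19.5, 13.5, 2.82 and 0 CPM, and Control replicate 1 was low with and without the 17. Monocyte genes, nearly all Lyz2, stood at 61.5, 10.5, 904 and 218 CPM in the 92, highest in Control replicate 1. In the 75 they stood at 0, 0, 14.1 and 20.2 CPM. The progenitor list rose in 5 of 5 measured genes, among them Cd34 (log2 difference 5.00) and Cpa3, a mast cell and progenitor protease (4.88). In monocytes 3 of 4 rose, with Lyz2, lysozyme, at 2.41, and in plasmacytoid dendritic cells 3 of 4, with Irf8 at 1.81, or -0.24 and not called without Control replicate 1. In B cells 2 of 4 rose, in neutrophils 1 of 3 (Mpo, myeloperoxidase) and in erythroid cells 1 of 3 (Car2, carbonic anhydrase, 3.09). A single member held 70.1% of the Lyz2 UMIs, and Ifitm3, an interferon-induced membrane protein and the largest rise among genes with an average log2 CPM of at least 4 (3.96), stood at -1.42 and was not called in the 75.

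Among the recent thymic emigrant genes (Ccr9, Itgae, Tox and Ikzf2), 2 of 4 rose, and both also did in the 75. DESeq2 and the test without the pool in the model each called 1 of the 4. The list medians were 0.68 and 0.69 there, beside 0.65. Ikzf2, the transcription factor Helios, stood at 107, 188, 161 and 223 CPM in the 75 members, against 32.4, 56.6, 49.7 and 39 CPM in other Cd8 T cells. All 4 member values were above all 4 values of the other cells. Its log2 difference was 1.65 ± 0.21 (SE, adjusted p = 5.41e-12, edgeR's quasi-likelihood test, higher in 4 of 4 pools) and 1.27 over all 92. Over the 29 members with at least 2 UMIs of both Sox4 and Cd24a it was 1.09 and not called (adjusted p = 0.242, same edgeR test). Ikzf2 was counted in 57.3% of the 75 and in 19.2% of the others.

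Tox, a transcription factor needed in thymocyte selection and also raised in chronically stimulated T cells, stood at 117, 256, 180 and 111 CPM in the 75 members. Other Cd8 T cells had 67.2, 168, 52.9 and 45.5 CPM. Each member value lay above its own pool's other cells, but the ranges overlapped because Runx1::Runx1t1 replicate 2 was high in both classes. The log2 difference was 0.98 ± 0.20 (SE, adjusted p = 0.000101, edgeR's quasi-likelihood test) and 0.65 over all 92 members. Without Control replicate 1 the Tox difference over all members was 0.27 and not called. It was also not called with DESeq2 (0.69), without Scrublet doublets (0.68) and without the pool in the model (0.43). Over members with at least 2 UMIs of both genes Tox stood at 0.23 and was not called. Neither Ccr9, a thymic homing receptor, nor Itgae, the integrin CD103, passed the test. The summed level of the 4 genes was 273, 457, 383 and 385 CPM in the 75, against 119, 246, 135 and 114 CPM in all other Cd8 T cells.

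Marcksl1, an actin-regulating protein, was the largest rise of the 75 among genes above the same average level. It stood at 48.7, 40.4, 95.7 and 40.5 CPM against 16.1, 12.8, 12.3 and 12.7 CPM. The 2 classes did not overlap, and the log2 difference was 2.19 ± 0.31 (SE, adjusted p = 2.68e-10, edgeR's quasi-likelihood test), with 2.74 over all 92. Of the 15 largest rises over all members, 6 were called again in the 75. Besides Marcksl1 and Ikzf2 these were Ift80, an intraflagellar transport protein (log2 1.32 over the 92 and 1.74 in the 75), St3gal1, a sialyltransferase of O-glycans (1.18 and 1.38), Ramp1, a subunit of the receptor for the neuropeptide CGRP (2.13 and 1.20), and Cmtm7, a membrane protein (1.40 and 0.92). St3gal1 was not called without Scrublet doublets (1.27), within the 10th to 90th percentile of the members' UMIs (1.02) or without Control replicate 1 (0.91). Ift80 was not called without the pool in the model (1.44), without Runx1::Runx1t1 replicate 2 (0.95) or without Control replicate 1 (1.31). With at least 2 UMIs of both Sox4 and Cd24a neither was called (0.51 and 0.97). The other rises were smaller in the 75 and not called, among them Sypl at 1.12, Etv6, an ETS family repressor, at 0.79, Pafah1b3 at 0.63 and Idh2, a mitochondrial dehydrogenase, at 0.39. Ptpre, a phosphatase, was at -0.23 and Zeb2, a transcription factor of terminal effectors and myeloid cells, at -1.12.

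By the same rule applied to the 75, Ephx1, an epoxide hydrolase (log2 difference 1.44), Nck2, an adaptor of receptor signalling (1.31), Med31, a Mediator subunit (1.08), and Cdc25b, a phosphatase of the cell cycle (1.06), joined the list. Smc4, a condensin subunit, stood at 214, 404, 383 and 385 CPM against 130, 146, 185 and 132 CPM, so the 2 classes did not overlap. Its log2 difference was 0.94 ± 0.15 (SE, adjusted p = 1.45e-07, edgeR's quasi-likelihood test) and 0.60 over all 92. Zfpm1 (0.92), a GATA cofactor, Tigd2 (0.80) and Sdhaf1 (0.78) were also called. Over all 92 members Ephx1 (0.97) and Zfpm1 (0.78) were called, and Nck2 (0.95), Med31 (0.88), Cdc25b (0.71), Tigd2 (0.51) and Sdhaf1 (0.56) were not. Zfpm1 was not called with DESeq2 (0.86), without doublets (0.76) or with any pool left out (0.74 to 0.79). Ephx1 was not called without the pool in the model (1.02) or without Control replicate 1 (1.05) or 2 (0.88). Smc4 was not called without the pool in the model (0.65), without Control replicate 1 (0.57) or with at least 2 UMIs of both genes (0.54). Tcf7, the naive and stem-like T cell factor TCF-1, was 0.50 higher in the 75 and 0.15, not called, over all 92.

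Fewer of these rises were called when all members were set against the 743 Cd8 T cells with Sox4 and no Cd24a. Marcksl1 (log2 difference 1.76), Cmtm7 (1.23), Ramp1 (1.19) and Ikzf2 (1.02) were called. Tox (0.62), St3gal1 (0.76), Ift80 (0.37), Smc4 (0.27), Ephx1 (0.57), Nck2 (0.78), Med31 (0.83), Cdc25b (0.40), Zfpm1 (0.72), Tigd2 (0.47) and Sdhaf1 (0.46) were higher in value but not called.

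Several genes of the naive and maturation programmes fell in the members, and Tcf7 rose in the 75. In the maturation list 3 of 7 genes fell and none rose, with 92 or with 75 members. Over the 92, DESeq2 called 2 of the 7 lower and the test without the pool in the model 1. The list medians were -0.48 and -0.52 there, beside -0.57. Il7r, the alpha chain of the interleukin 7 receptor, stood at 136, 40.4, 155 and 101 CPM in the 75, against 198, 99.7, 352 and 270 CPM in other Cd8 T cells. It was lower in every pool, with a log2 difference of -1.34 ± 0.19 (SE, adjusted p = 2.68e-10, edgeR's quasi-likelihood test) and -1.36 over all 92, although the ranges overlapped between pools. H2-Q7, a class Ib histocompatibility molecule that rises as T cells mature, stood at 779, 686, 814 and 850 CPM against 879, 960, 854 and 880 CPM. All 4 member values were below all values of the others, by a small log2 difference of -0.42 ± 0.10 (SE, adjusted p = 0.00118, edgeR's quasi-likelihood test) and -0.57 over all 92. The log2 differences carry the scaling factors of the test (TMM) and CPM do not, and by CPM this fall was smaller in most pools. Ly6c2, an antigen of mature and memory cells, fell by 0.72 on the log2 scale and was lower in 3 of 4 pools. H2-Q7 and Ly6c2 have near-identical neighbours, H2-Q6 and Ly6c1, with which reads can be shared.

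In the naive list 3 of 12 genes fell over all 92 members, Il7r, Klf2 and Dapl1. DESeq2 called 2 of the 12 lower and the test without the pool in the model 0. The list medians were -0.20 and -0.21 there, beside -0.28. In the 75, Igfbp4, an insulin-like growth factor binding protein, fell (-1.35, against 0.33 and not called over all 92), and Tcf7 rose. Klf2, the transcription factor that drives exit from lymphoid organs, stood at 1101, 1910, 1475 and 891 CPM in the 75 against 1755, 1840, 1886 and 1480 CPM. It was lower in 3 of 4 pools and slightly higher in Runx1::Runx1t1 replicate 2. The log2 difference was -0.66 ± 0.08 (SE, adjusted p = 3.78e-12, edgeR's quasi-likelihood test) and -0.64 over all 92. Ccr7, a lymph node homing receptor, and Lef1, the partner of TCF-1, did not pass the test, with log2 differences of -0.25 and -0.39 over all members and 0.09 and -0.06 in the 75.

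Of 6 Bcl2 family genes only Bcl2, the survival factor itself, was called. Its levels were 331, 121, 237 and 162 CPM in the 75 against 332, 292, 317 and 309 CPM. Runx1::Runx1t1 replicate 1 showed almost no difference and the other 3 pools were clearly lower, with a log2 difference of -0.76 ± 0.15 (SE, adjusted p = 4.38e-05, edgeR's quasi-likelihood test) and -0.91 over all 92. The 8 genes, Myb included, are drawn by pool for the 75 barcodes.

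**Figure D3:**
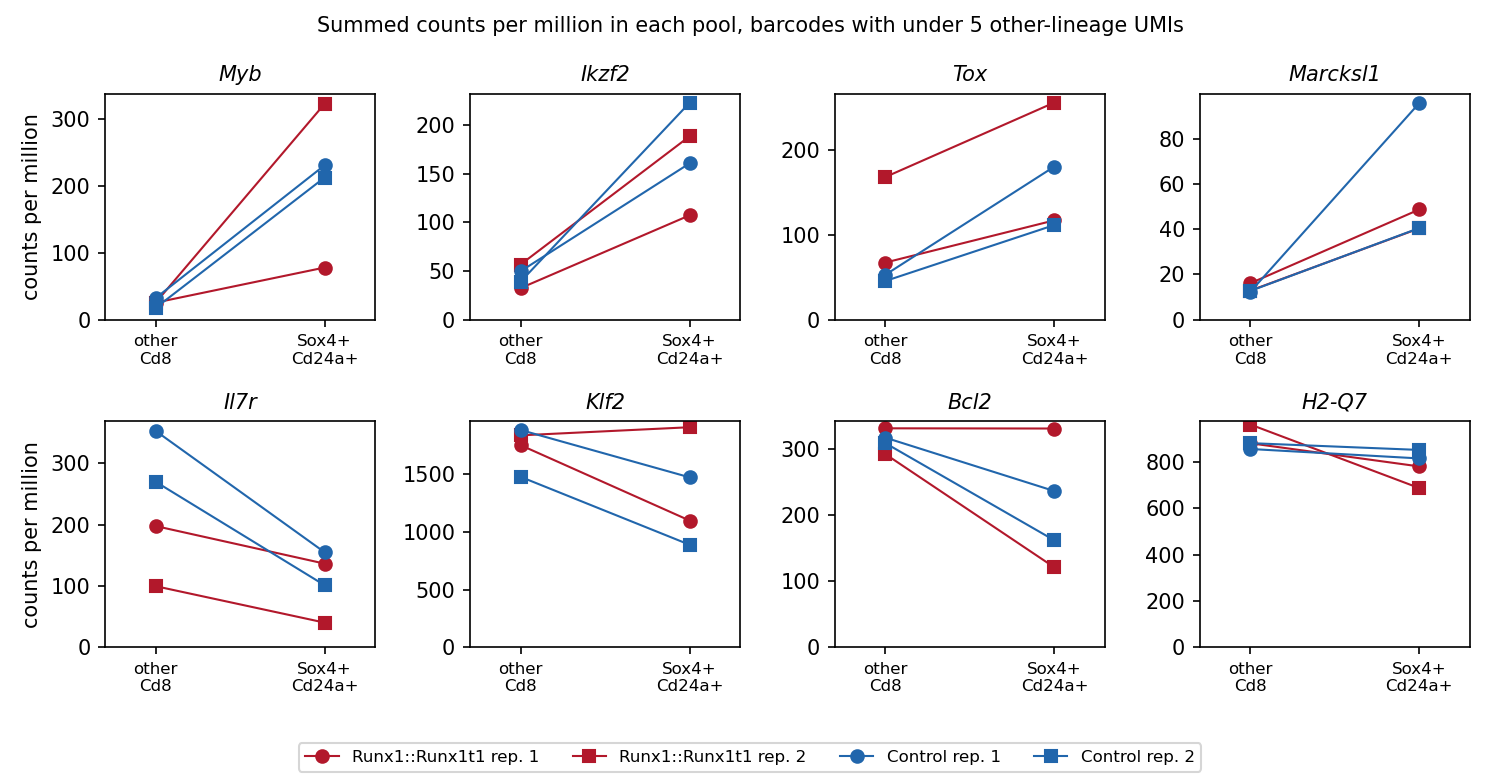
CPM of 8 genes (panels, linear axes from 0) in other Cd8 T cells and in Sox4+Cd24a+ cells, barcodes with under 5 other-lineage UMIs, with a line for each of the 4 pools. Myb, Ikzf2, Tox and Marcksl1 go up in every pool, Il7r and H2-Q7 go down in every pool, and Klf2 and Bcl2 go down in 3 of 4 with the other pool nearly level.

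The cytotoxic list fell in 10 of 17 genes over all members, with Zeb2 the 1 that rose, and in 9 in the 75, where none rose. DESeq2 called 3 of the 17 lower and 0 higher, and edgeR without the pool in the model called 0, while the median log2 difference of the list was -0.89, -0.81 with DESeq2 and -1.01 without the pool, beside -0.07, 0.01 and -0.07 over all genes. Ccl5 stood at 6313, 11103, 2803 and 2395 CPM in the 92 against 8873, 15629, 4557 and 4797 CPM, lower in every pool (log2 difference -0.89 ± 0.06, SE, and -0.97 in the 75). Gzma, the granule protease granzyme A, had 6 UMIs in all 92 members, at 7.69, 21.1, 4.36 and 4.19 CPM against 269, 685, 49.1 and 64.3 CPM, and 2 classes that did not overlap (log2 difference -4.74 ± 0.32, SE, and -4.90 in the 75). Nkg7, Gzmb, Prf1 (perforin) and Tbx21 (T-bet, the factor of effector cells) fell by 0.64, 1.19, 1.22 and 1.23 on the log2 scale. In the 75 they stood at -0.61, -1.0, -1.08 and -1.12, and Prf1 was not called. Against Cd8 T cells with Sox4 and no Cd24a, Gzma still differed by -3.33, but Ccl5 stood at 0.18 and Gzmb at 0.32, neither called. Among members and other cells with at most 5 Ccl5 UMIs and under 5 other-lineage UMIs, the Gzma difference was 0.78 and not called, while Ikzf2 (2.47), Tox (1.29), Il7r (-2.12), Klf2 (-1.10) and Bcl2 (-1.01) were called as before.

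The remaining large falls over all members came from the rule for named genes and not from a list. Klra7 and Klrc2, killer-lectin receptors whose near-identical relatives can share reads, stood at -2.61 and -2.14 on the log2 scale, Cxcr6, a chemokine receptor of resident cells, at -1.57 and Rora, a nuclear receptor, at -1.71. Frmd4b (-1.99), Prkcz, an atypical protein kinase C (-1.62), Ppm1j, a phosphatase (-1.60), and Tspyl2 (-1.53) completed the list. Wdr95 had 1 UMI in the members, a ratio of 0.0602 to other Cd8 T cells with a counting interval of 0.00152 to 0.336. In the 75, S100a6, a calcium-binding protein of activated and memory cells, fell by 2.03 (0.88 over all members). Ccr2, a chemokine receptor of monocytes and effector cells, fell by 2.16 there but stood at -0.18 and was not called over all members. Tyrobp, a signalling adaptor of NK and myeloid cells, fell by 1.89 in the 75 but rose by 1.29 over all members. Memory genes fell in 3 of 8, with Il2rb, the shared interleukin 2 and 15 receptor chain, at -0.74. The median of the list was -0.50. DESeq2 (median -0.42) and the test without the pool in the model (-0.54) called 0 of the 8. So did the test over members with at least 2 UMIs of both genes (-0.68).

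In the 17 barcodes with transcripts of other lineages Jun, an AP-1 subunit, stood at 6572, 5100, 1263 and 1728 CPM. Over all members Nr4a1 (log2 difference 0.85) and Egr1 (0.77), immediate targets of receptor signalling, rose, Cd69, an activation antigen, fell (-0.31), and the other 6 genes of that list were not called. Fos (0.85) and Jun (0.64) rose and Junb (-0.23) fell among 5 AP-1 genes. In the 75 none of the 9 response genes was called, and Jun was lower instead, at 351, 888, 617 and 415 CPM against 692, 722, 773 and 617 CPM (log2 difference -0.60). Jun lay below its own pool's other cells in 3 of 4 pools.

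The counts of the other lists stand beside 4.77% called of all genes tested. Of 26 T cell transcription factors, 2 rose (Tox and Ikzf2) and 1 fell (Tbx21), of 11 homing genes 2 fell (Klf2 and Cd69), and of 7 sialyl and glycosyl enzymes St3gal1 rose and St3gal6 (-0.74) fell. In the NK list Tyrobp rose and Klrb1c fell among 4 measured genes. None of 7 gamma-delta, 6 inhibitory receptor and 11 interferon-stimulated genes was called over all members, and in the 75 only Trdc, the delta chain constant region, was (1.34). Over all genes tested the median log2 difference was -0.07, and in the 75 it was -0.13.

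Ribosomal protein genes, a group chosen after its values were seen, fell in 68 of 80, with a median log2 difference of -0.37, and in 67 of 80 in the 75. Their share of a class's UMIs was 28.5, 26.2, 28.7 and 29.1% in the members against 31.8, 27.9, 33.1 and 33.3% in other Cd8 T cells. It was lower in each pool. The median log2 difference carries the scaling factors of the test, which these shares do not, and is a larger fall than the shares show. DESeq2 called 36 of the 80 (median -0.28), the test over members with at least 2 UMIs of both genes 1 (median -0.82) and the test without the pool in the model 2 (median -0.36). Against Cd8 T cells with Sox4 and no Cd24a, 54 of 79 were called lower.

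**Figure D4:**
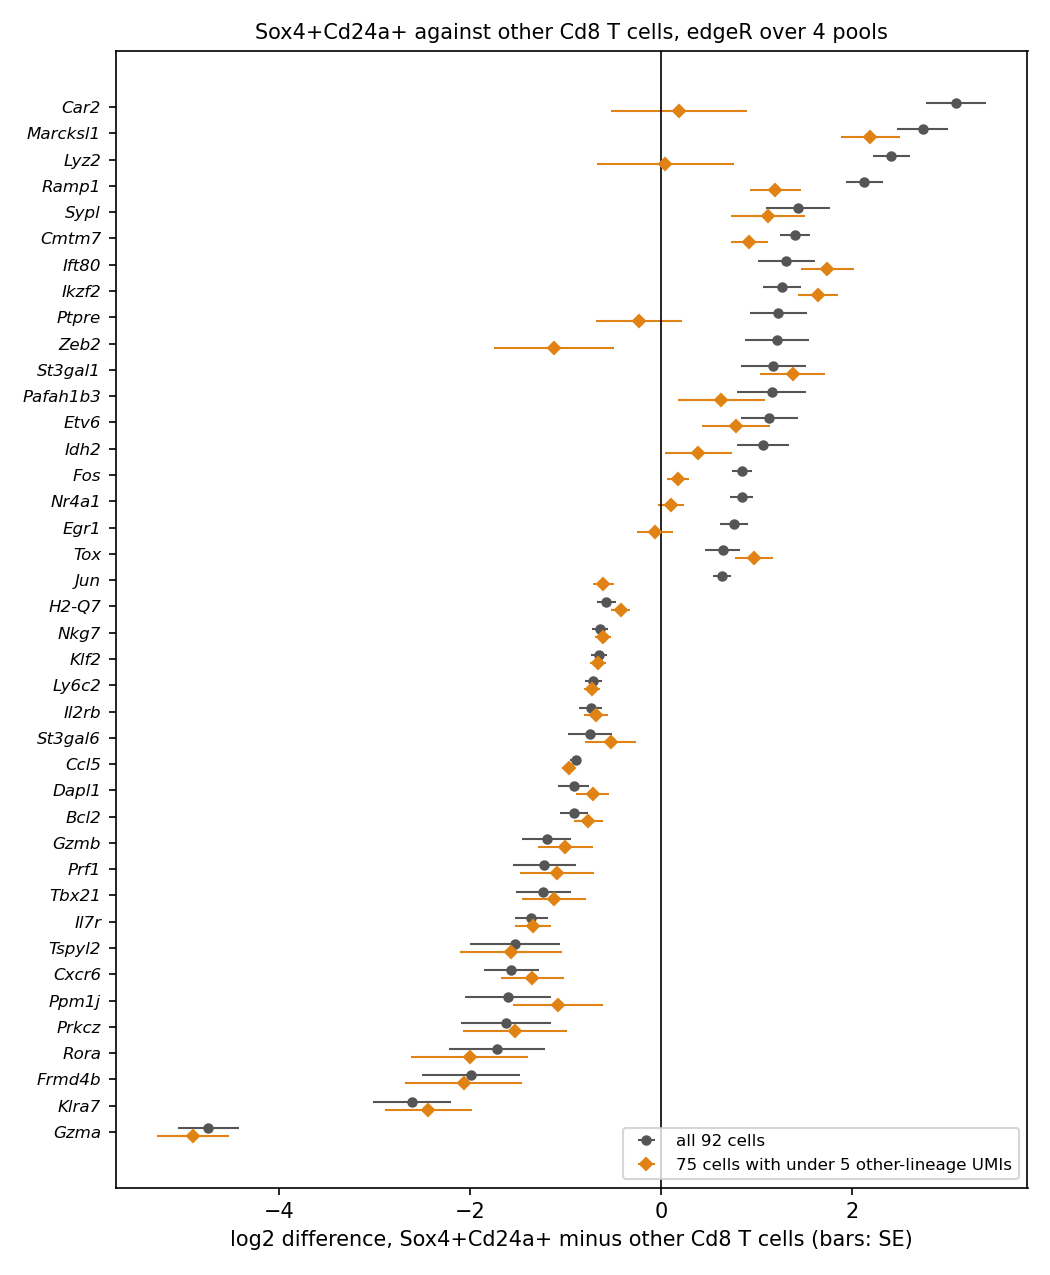
Log2 difference (x axis, with SE) of 40 named genes between Sox4+Cd24a+ and other Cd8 T cells over 4 pools, for all 92 members (grey) and the 75 with under 5 other-lineage UMIs (orange). Car2 and Lyz2 move close to 0 and Ptpre and Zeb2 past it in the 75, Jun changes side, and Marcksl1, Ikzf2, Tox, Il7r, Bcl2 and Gzma keep theirs.

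The third question was whether the members differ between the groups. With 4 sums of 11 to 48 cells, 2782 genes could be tested and 5 (0.180%) were called, 2 (0.0719%) higher and 3 (0.108%) lower in Runx1::Runx1t1. At an unadjusted p under 0.05 there were 121, and the pools of the groups did not overlap in 33.7% of the genes tested. DESeq2 called 4. With under 5 other-lineage UMIs 4 of 1480 genes were called, all higher, and without Scrublet doublets 5 of 1547, all lower. The count was 1 and 0 without Runx1::Runx1t1 replicates 1 and 2 (edgeR, 273 and 162 at an unadjusted p under 0.05), and 36 and 25 without Control replicates 1 and 2. On data simulated with 4-fold changes the same test recovered 166 of 182 changed genes. The simulation used a fixed spread set beforehand and changed only better-counted genes. It therefore does not give the recovery in these member sums.

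Ccl5 was higher in both Runx1::Runx1t1 pools (6313 and 11103 CPM) than in both Control pools (2803 and 2395 CPM), with a log2 difference of 1.71 ± 0.21 (SE, adjusted p = 0.0170, edgeR's quasi-likelihood test). In other Cd8 T cells the Ccl5 difference was 1.33 ± 0.25 (SE, adjusted p = 0.0937, edgeR's quasi-likelihood test), and the edgeR test of the difference between the classes gave an adjusted p of 0.913. With Scrublet doublets left out the member difference was 0.64 and not called, and without Runx1::Runx1t1 replicate 2 it was 1.27 and not called. In Runx1::Runx1t1 replicate 2, 1 member held 676 of its 1054 Ccl5 UMIs, in replicate 1, 1 member held 434 of 821, and Scrublet marked both as doublets.

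Of the other 4 called genes, Cpa3 and Cd74 also rested on few barcodes. Cpa3 had 128, 30, 0 and 5 UMIs in the 4 pools, and 52.8% of them lay in 1 member. Cd74, the invariant chain of antigen-presenting cells, had 1, 0, 254 and 548 UMIs, of which 1 member held 67.4%, and its ratio between the groups was 0.00387 (counting interval 9.78e-05 to 0.0216). Cd209a, a dendritic cell lectin, had 0, 0, 50 and 30 UMIs, at least 8.60-fold lower in Runx1::Runx1t1 against a floor of 3 counts over the group, and Ifitm3 had 1, 1, 120 and 127, a ratio of 0.0251 (0.00302 to 0.0917). In the 75 barcodes Cd74 had 4 UMIs in all, and of the 5 genes only Ccl5 could be tested. It was called there at 1.93.

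In other Cd8 T cells 14 of 13167 genes (0.106%) were called between the groups, 9 (0.0684%) higher and 5 (0.0380%) lower, and in 53.2% of the genes the pools did not overlap. That count depended on the test and on single pools. DESeq2 called 644 and edgeR with no filter on low counts 335, and without Runx1::Runx1t1 replicates 1 and 2 and Control replicates 1 and 2 in turn edgeR called 1701, 386, 5 and 5. Ikzf2, Tox, Marcksl1 and Il7r, which differed between the members and other Cd8 T cells, did not pass the test between the groups. The log2 differences between Runx1::Runx1t1 and Control in the members were 0.07 for Ikzf2, 0.56 for Tox, -1.0 for Marcksl1 and -0.85 for Il7r. Their standard errors were 0.33, 0.49, 0.55 and 0.53.

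A test of the difference between the 2 group effects called 36 of 12285 genes (0.293%), 10 (0.0814%) more positive and 26 (0.212%) more negative in the members. With under 5 other-lineage UMIs 15 were called, and 9 of the 36 were among them. The simulated test recovered 41 of 195 genes changed 4-fold, so most changes of that size would be missed.

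Receptor sequences offered measures that the rule did not use. Among paired cells, 0, 0, 3.23 and 10.0% of the members belonged to a clonotype of 2 or more Cd8 T cells of their pool, against 22.8, 41.5, 7.33 and 13.4% of other Cd8 T cells. The members were lower in 4 of 4 pools, with means of 3.31 ± 4.71% and 21.3 ± 14.9% (SD, n = 4 pools). This difference of -17.9 percentage points was -1.02 when both classes were limited to cells with at most 5 Ccl5 UMIs, and -10.1 without Runx1::Runx1t1 replicate 2. A two-sided exact paired permutation test gave p = 0.12, the smallest possible, and an adjusted p of 1 over 8 measures. Only 2 of the 59 paired members (12, 6, 31 and 10 by pool) were in such a clonotype, and no clonotype was shared between members. The 59 used 33 TRA and 21 TRB V segments.

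The clonotype share, whose difference had an SD of 18.1 percentage points over pools, and the other receptor measures differed by no more than that kind of spread. Both chains were found in 85.7, 54.5, 64.6 and 52.6% of the members and in 79.2, 74.8, 78.4 and 81.2% of the others, lower in 3 of 4 pools (exact p = 0.25). More than 1 TRB chain was seen in 10 members and more than 1 TRA chain in 11. The mean number of bases in neither V nor J was 2.94 ± 0.28 in TRA and 10.3 ± 1.37 in TRB of the members, against 2.80 ± 0.05 and 10.5 ± 0.66 in other Cd8 T cells (SD, n = 4 pools, exact p = 0.375 and 1). Median CDR3 lengths were 40.9 bases against 42 in TRA and 42.8 against 42 in TRB, averaged over pools.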

How the data were processed

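T cells were profiled with 10x 5′ gene expression and T cell receptor libraries. The authors made the deposited UMI counts per gene and barcode with Cell Ranger 6.1.2 on the mouse build GRCm38, per their notes, and every barcode of the filtered matrices was used here, whereas the study kept fewer cells after its own filters. The members and gene lists were chosen with earlier results of these data known. Counts were summed per pool and class and tested with edgeR 4.0.16 (TMM, filterByExpr, quasi-likelihood test, Benjamini-Hochberg, threshold 0.05), which was tested on simulated data, where it recovered 129 of 199 genes changed 4-fold between members and other Cd8 T cells. The simulated counts had a fixed spread set beforehand and changes only in better-counted genes. The pool was a block between classes and not between groups. Named genes were the 15 largest rises and 10 largest falls with adjusted p under 0.05, the same direction in 4 pools and an average log2 CPM of at least 4, without predicted, receptor or rule genes, and between groups up to 10 each way with pools that did not overlap. DESeq2 1.42.0, other filters, stricter rules, left-out pools and Scrublet (scanpy 1.11.5) were alternatives. Scrublet's own threshold marked 0.00687% and 0% of Runx1::Runx1t1 replicate 1 and Control replicate 1, so the top 5% by score was taken there. Libraries shared 256 to 306 barcodes per pair, 8 of them members. Intervals are 95% Wilson intervals, a count of 0 was given a floor of 3 counts, and both cover counting error only. The V and J germline segments were both found for 99.9% of TRA and 85.9% of TRB chains. The other chains have no count of bases in neither V nor J. Of the TRB chains without a match, 53.4% used the segment labelled TRBV12-2+TRBV13-2. A planned comparison within a narrower set of Cd8 T cells, which held 4 members, is not reported here.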

Additional observations from a re-analysis of the deposited data

Results flagged for a closer look

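In 17 named genes the difference between Runx1::Runx1t1 and Control was itself different in the Sox4+Cd24a+ cells and the other Cd8 T cells (edgeR's quasi-likelihood test of the interaction, Benjamini-Hochberg adjusted over 12285 genes). Of the 17, Klrk1 and Glcci1 were also called in barcodes with under 5 other-lineage UMIs. DESeq2 called 5 of all 36. Of the named genes with a value there, DESeq2 called 1 in the same direction, 14 kept the direction without a call and 1 turned. With the replicate number as a block, 9 of the named genes were called and 7 kept the direction without a call.

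Among genes more positive in the members were Rhob, a small GTPase (log2 1.86, adjusted p = 1.68e-05, edgeR), and Tespa1, a thymocyte signalling protein (1.65, adjusted p = 0.0105, edgeR). Rhob stood at 400, 211, 76.3 and 134 CPM in the members and at 72.6, 91.2, 102.8 and 86.5 CPM in other Cd8 T cells. Tespa1 stood at 169, 169, 85.0 and 62.8 against 57.2, 45.0, 70.5 and 80.3 CPM. Both were high in the members of both Runx1::Runx1t1 pools. Klrk1, the receptor NKG2D, had log2 1.54 (adjusted p = 0.0440, edgeR), with members at 215, 0, 74.1 and 105 CPM, so it was high in 1 Runx1::Runx1t1 pool and at 0 in the other. Egr1 (1.15, adjusted p = 0.0227, edgeR), Jun (0.81, adjusted p = 0.00559, edgeR), Ctla2a, a protease inhibitor (0.79, adjusted p = 0.0157, edgeR), and Gimap4, a lymphocyte GTPase (1.01, adjusted p = 0.0393, edgeR), completed these. The sign turned for Klrk1 with DESeq2 (-0.010), for Egr1 with under 5 other-lineage UMIs (-0.23), for Jun without doublets (-0.35), and for Egr1 (-0.43), Jun (-1.27) and Ctla2a (-0.69) with also at most 5 Ccl5 UMIs.

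Another 6 genes were more negative in the members. Cd74 (adjusted p = 4.33e-63, edgeR) and H2-Aa (adjusted p = 8.12e-21, edgeR), the class II invariant and alpha chains, were at 7.69, 0, 554 and 2294 CPM and at 0, 0, 135 and 716 CPM in the members, with H2-Aa at least 25-fold lower in Runx1::Runx1t1 and 1 member holding 73.4% of it. Glcci1 (adjusted p = 0.0295, edgeR), Unc93b1, a chaperone of endosomal receptors (adjusted p = 0.0471, edgeR), and Tyrobp (adjusted p = 0.0393, edgeR) had 1 to 2 UMIs in the Runx1::Runx1t1 members, with ratios to Control of 0.0886, 0.0596 and 0.0350 (counting intervals 0.00218 to 0.527, 0.00148 to 0.347 and 0.00421 to 0.128). Irf8, a factor of dendritic cells, had log2 -3.24 (adjusted p = 0.000117, edgeR), with 64.9% of its UMIs in 1 member. With under 5 other-lineage UMIs, Cd74 had 4 UMIs in all members.

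The last 4 were high in other Cd8 T cells of Runx1::Runx1t1 replicate 2. Lgals3, a galectin, had log2 -3.95 (adjusted p = 5.34e-08, edgeR) and Adgrg1, an adhesion receptor of cytotoxic cells, -3.88 (adjusted p = 1.37e-05, edgeR). Ccl3, a chemokine, had -3.33 (adjusted p = 1.71e-10, edgeR) and Pdcd1, the inhibitory receptor PD-1, -3.24 (adjusted p = 0.0244, edgeR). Pdcd1 stood at 23.1, 31.6, 19.6 and 8.37 CPM in the members and 23.2, 97.9, 3.67 and 2.81 CPM in other Cd8 T cells. In other Cd8 T cells Pdcd1 and Lgals3 were thus not high in that pool alone. Both Runx1::Runx1t1 pools were above both Control pools. The Lgals3 difference between the groups there was log2 1.25 ± 0.10 (SE, adjusted p = 0.0407, edgeR's quasi-likelihood test). The part of barcodes with other-lineage transcripts in these differences was not tested beyond leaving those barcodes out.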

How the results depend on the processing

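The share of Sox4+Cd24a+ cells among Cd8 T cells was lower in Runx1::Runx1t1 under each setting given here, by 0.0771 (2000 UMIs per cell) to 0.340 percentage points outside the left-out pools (-0.585 to -0.0877) and the replicate block (-0.562 and -0.111 within numbers 1 and 2). It was -0.258 with under 5 other-lineage UMIs, -0.149 with at least 2 UMIs of both genes, -0.181 with each clonotype once, -0.274 without Scrublet doublets, -0.306 with at most 5 Ccl5 UMIs and -0.228 with 1 TRB chain.

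Genes called between members and other Cd8 T cells numbered 248 with DESeq2, 343 without doublets, 341 within the middle depths, 76 with at least 2 UMIs of both genes, 132 with no replicate block, and 278 to 544 with a pool left out. Chosen after seeing the data, they were 273 with under 5 other-lineage UMIs, 274 with also at most 5 Ccl5 UMIs, and 147 against cells with Sox4 and no Cd24a. Between the groups in members they numbered 57 with no filter, 0 with at most 5 Ccl5 and under 5 other-lineage UMIs (edgeR, 26 at an unadjusted p under 0.05), 10 with the replicate block, and 0 to 36 with a pool left out. In other Cd8 T cells they numbered 335 with no filter, 644 with DESeq2, 659 with at most 5 Ccl5 and under 5 other-lineage UMIs, 1118 with the replicate block, and 5 to 1701 with a pool left out. For the difference of the group effects they were 5, 23, 15 and 6 with DESeq2, without doublets, under 5 other-lineage UMIs and also at most 5 Ccl5, 25 with the replicate block (all 25 among the 36), and 21 to 39 with a pool left out. The causes were not tested. Same-numbered pools deviated together with r = -0.0646 over 3241 genes in members and 0.295 over 10878 in other Cd8 T cells, across genes. With 2 numbers and no label that ties them to a litter or day, the numbers were not taken as pairs.

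The clonotype difference was -1.02 with at most 5 Ccl5 UMIs. Receptor differences turned with at most 5 Ccl5 UMIs to 2.17 (both chains), -0.158 (2 TRA), -0.375 (TRB length), -0.0797 (TRA bases) and 0.383 (TRB bases), and with under 5 other-lineage UMIs to -0.0120 (TRA bases). With a pool left out they ranged from -4.0 to 5.67 (2 TRA), -0.103 to 7.43 (2 TRB) and -0.442 to 0.268 (TRB bases), and TRB length had a difference of 0 without Runx1::Runx1t1 replicate 1, the pool whose absence also turned the other 3.

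Genes called over the 92 or the 75 that changed direction from the 92 with under 5 other-lineage UMIs were Ifitm3 (-1.42), Ptpre (-0.23), Zeb2 (-1.12), Cpa3 (-0.77), Tyrobp (-1.89), Igfbp4 (-1.35), Egr1 (-0.062) and Jun (-0.60). With also at most 5 Ccl5 UMIs they were Lyz2 (-0.53), Igfbp4 (-2.13), Ptpre (-0.90), Idh2 (-0.068), Gzma (0.78), Egr1 (-0.012), Fos (-0.35) and Jun (-0.98). With at least 2 UMIs of both genes they were Lyz2 (-0.36), Tcf7 (-0.023), Tyrobp (-0.99), Ephx1 (-0.52), Sdhaf1 (-0.31), Egr1 (-0.22), Fos (-0.20) and Jun (-0.65). Irf8 was at -0.24 without Control replicate 1. Against cells with Sox4 and no Cd24a they were Ccl5 (0.18), Gzmb (0.32), Ccr2 (0.23), Igfbp4 (-0.29), Tcf7 (-0.11) and Trdc (-0.02). Of genes called in the 75 alone, Ccr2 was also above 0 without doublets (0.19), within the middle depths (0.20) and without Runx1::Runx1t1 replicate 1 (0.21), Igfbp4 (0.33 in the 92) was also below 0 without doublets (-0.018), within the middle depths (-0.14) and without Control replicate 2 (-0.31), and Tcf7 without Runx1::Runx1t1 replicate 2 (-0.13). For the difference of the group effects they were Klrk1 (-0.010, DESeq2), Egr1 (-0.23 with under 5 other-lineage UMIs, -0.43 with also at most 5 Ccl5), Jun (-0.35 without doublets, -1.27 with at most 5 Ccl5) and Ctla2a (-0.69, likewise). Genes at 0 in a group under a setting were given no value.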

Other observations

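Cells with Sox4 and Cd24a were not particular to the Cd8 gate. Among T cells with Cd4 and no Cd8 UMIs, 30 of 6838 (0.439%) had both, at 0.288, 0.226, 0.959 and 0.667% in the 4 pools, with both Runx1::Runx1t1 pools below both Control pools. Outside the Cd8 gate both genes were counted in 837 of 28947 barcodes (2.89%). The pools stood at 1.75, 1.98, 1.88 and 5.98%, and Control replicate 2 held 432 of the 837. Among barcodes with a UMI of Kit, the stem cell factor receptor of progenitors and mast cells, 574 of 1515 had both. By pool the shares were 21.9, 23.4, 28.6 and 64.6%, and Control replicate 2 held 341 of the 574.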
